A study of Mus musculus with 6 samples.

Results

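The genes described here are the glucocorticoid receptor, the related mineralocorticoid receptor, an enzyme that regenerates the hormone inside cells, and 6 genes that the hormone is known to induce. They were taken from the expression table by symbol (Nr3c1, Nr3c2, Hsd11b1, Fkbp5, Tsc22d3, Sgk1, Klf9, Zbtb16 and Errfi1). All 9 were found, each with 1 probe set, among 25206 probe sets. The choroid plexus, the vascular and epithelial tissue in the brain ventricles that makes cerebrospinal fluid, came from C57BL/6J mice aged 2 to 3 months (young, n = 3) or 20 to 22 months (aged, n = 3). Each mouse had its own expression array, and the labels name no treatment, sex, batch or time of day of collection.

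Glucocorticoids (corticosterone in mice) cross the cell membrane and bind the receptor encoded by Nr3c1, which waits in the cytoplasm in a complex with heat shock proteins and co-chaperones. The bound receptor moves to the nucleus and raises transcription of target genes from glucocorticoid response elements, palindromes read by a receptor pair. Several targets act back on the signal, and circulating hormone follows the day and stress, so that target transcripts are often read as a record of recent exposure. The choroid plexus faces both blood and cerebrospinal fluid and is in contact with circulating steroids.

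Promoter windows of RefSeq (build GRCm38.p6, 250 bases before to 50 after a start site) were at hand for 7 of the 9 genes, with 15 windows in all. Sgk1 had 6 of these windows, at different start sites, and Tsc22d3 had 3. The consensus element searched was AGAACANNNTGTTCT, a palindrome that reads the same on both strands, where N is any base. It was in 3 of 32851 windows of all genes (0.009%), and 1 of these 3 was a window of Sgk1. The looser form GNACANNNTGTNC, which overlaps the consensus, was in 0.475% of all windows and, of the 15, in that same Sgk1 window. A lone arm of the palindrome, AGAACA on either strand, was in 19.0% of all windows and in 4 of the 15, of Sgk1 and Tsc22d3. The 250 bases upstream of the start are printed for the Sgk1 window with the full element, for the Tsc22d3 window with 1 arm, and for Klf9 and Fkbp5, whose windows held none of these motifs. Klf9 and Tsc22d3 had young and aged values that did not overlap, and Fkbp5 varied most between animals. Capitals mark the motif matches, and the sequences run 5′ to 3′ along the gene.
Sgk1, chr10:21993640-21993889, plus strand: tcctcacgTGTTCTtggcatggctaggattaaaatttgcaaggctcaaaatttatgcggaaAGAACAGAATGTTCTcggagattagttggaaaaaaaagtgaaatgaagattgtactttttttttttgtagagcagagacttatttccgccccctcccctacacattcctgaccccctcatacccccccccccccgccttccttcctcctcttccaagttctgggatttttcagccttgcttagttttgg
Tsc22d3, chrX:140600523-140600772, minus strand: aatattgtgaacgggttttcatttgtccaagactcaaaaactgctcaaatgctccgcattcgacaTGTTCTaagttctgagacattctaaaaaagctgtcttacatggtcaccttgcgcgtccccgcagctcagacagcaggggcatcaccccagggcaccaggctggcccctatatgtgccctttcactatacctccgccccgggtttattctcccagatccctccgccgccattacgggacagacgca
Klf9, chr19:23140976-23141225, plus strand: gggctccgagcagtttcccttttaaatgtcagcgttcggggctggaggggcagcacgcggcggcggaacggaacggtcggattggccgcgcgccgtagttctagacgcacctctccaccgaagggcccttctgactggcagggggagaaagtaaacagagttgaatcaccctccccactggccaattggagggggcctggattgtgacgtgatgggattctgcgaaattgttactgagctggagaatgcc
Fkbp5, chr17:28486150-28486399, minus strand: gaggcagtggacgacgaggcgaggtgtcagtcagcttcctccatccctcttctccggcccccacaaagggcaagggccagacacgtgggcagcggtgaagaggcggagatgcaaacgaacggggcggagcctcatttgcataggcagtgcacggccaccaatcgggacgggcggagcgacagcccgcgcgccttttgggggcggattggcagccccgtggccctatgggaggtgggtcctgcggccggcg
In the printed Sgk1 window, 1 of 6, the full element lay at -189 to -175 from that window's start site, and a further arm at -242 to -237. In the Tsc22d3 window the arm lay at -185 to -180. These are matches of letters and no measure of binding, and the motif may lie outside these windows for the other genes.

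None of the 9 genes differed between aged and young choroid plexus after adjustment over all probe sets (limma, Benjamini-Hochberg adjusted p between 0.696 and 0.987). At this threshold of 0.05, 0.0793% of all probe sets were called, 0.0595% with a higher and 0.0198% with a lower aged mean. The aged mean was lower for 8 of the 9 genes, and over all probe sets it was lower for 50.5%. These 8 include Hsd11b1, which lay under background on every array. Some cell type marker lists also had lower aged means, in 9 of 9 genes for stromal fibroblasts (median -0.48, 4 lower at an unadjusted p under 0.05). The others were oligodendrocytes, 8 of 8 (-0.51, 0), mural cells, 8 of 9 (-0.37, 2), and endothelium, 11 of 12 (-0.69, 9). Aged means were more often higher for choroid plexus epithelium, in 9 of 15 genes (median 0.08, 0 higher at an unadjusted p under 0.05). The same held for macrophages, 9 of 11 (0.82, 8), lymphocytes, 8 of 9 (0.29, 2), and neurons, 6 of 9 (0.02, 0). All lymphocyte means lay under background, and 0 markers of any list were called. Astrocyte and ependymal lists were mixed, lower in 4 of 6 and 4 of 7 genes. The part of these cells in the members' values was not tested. The median log2 difference of the 9 members (aged minus young) was -0.20, and that of all probe sets was -0.0018. Over the 8 members above background it was -0.17, against -0.0085 for all probe sets above background. No member had an unadjusted p under 0.05, which 7.77% of all probe sets had. In 2 members, Tsc22d3 and Klf9, every aged value lay below every young value, a pattern shown by 6.93% of all probe sets, while the reverse pattern was shown by no member and 6.69% of all probe sets. The 95% interval of the difference included 0 for all 9. Of the 8 members whose mean lay above background, it stayed inside a 2-fold change in both directions for 7, with Fkbp5 the exception, while Hsd11b1 was too dim for its interval to bound a change. With bulk tissue, fewer cells of a type and less RNA per cell cannot be told apart.

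**Figure D1:**
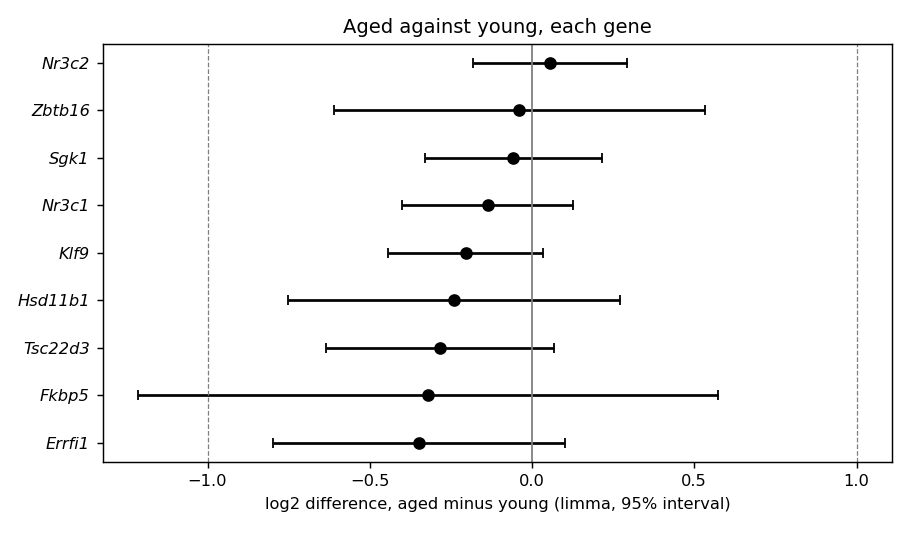
Log2 difference, aged minus young, of each of the 9 genes (points) with its 95% interval from limma (bars). The solid line marks no difference and the dashed lines a 2-fold change in each direction. Every interval crosses 0. The narrowest is that of Nr3c2, at -0.18 to 0.29, and the widest that of Fkbp5, at -1.21 to 0.57.

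The arrays and the make-up of the tissue were compared before single genes. Array medians lay between 4.03 and 4.09, and correlations between arrays between 0.982 and 0.990. The bright end was less even, with a highest value of 12.13 on young replicate 1 against 13.29 to 13.32 on the other arrays. The mean of 15 markers of choroid plexus epithelium was 10.96 to 11.22 on the young arrays and 11.12 to 11.14 on the aged ones, so the tissue carried its label's markers throughout. Young replicate 1 was the lowest array for 6 of the 15, and for 17.7% of all probe sets. A background guide was set at 3.46, the 95th percentile of 1345 olfactory and vomeronasal receptor probe sets. These genes were taken to be mostly silent in this tissue, which was not tested. Markers of brain tissue and stroma were present and uneven, with 7 of 8 oligodendrocyte markers, 9 of 9 fibroblast markers, 5 of 6 astrocyte markers and 8 of 9 neuron markers above the guide on every array. The mean of 8 oligodendrocyte markers was 6.74 on young replicate 3, 5.59 to 5.82 on the other young arrays, 4.73 on aged replicate 2, and 5.82 to 6.11 on the other aged arrays. Young replicate 3 was the highest of the 6 arrays for all 8 of these markers, and aged replicate 2 the lowest for 7. The mean of 9 stromal fibroblast markers was likewise highest on young replicate 3, at 7.09 against 5.83 and 6.15 in the other young animals, and lowest on aged replicate 2, at 5.34 against 5.67 and 5.97. The mean of 6 astrocyte markers was 5.09 to 6.18 on the young arrays and 4.35 to 6.32 on the aged ones, lowest on aged replicate 2 and highest on aged replicate 1. The mean of 9 neuron markers was 6.19 on aged replicate 1, the highest array for 6 of them, against 4.48 and 4.96 on the other aged arrays and 4.99 to 5.28 on the young ones.

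The 2 receptors differed little in mean. Nr3c1 (probe set 14815_at) encodes the glucocorticoid receptor, a hormone-dependent transcription factor. Its log2 expression was 7.41, 7.42 and 7.34 on the young arrays 1 to 3 and 7.30, 7.10 and 7.36 on the aged arrays 1 to 3. Aged replicate 2 was the lowest, while aged replicate 3 lay above young replicate 3. The difference was -0.14 (SE 0.11), a 0.909-fold level (95% interval 0.758 to 1.09, limma adjusted p = 0.812). Without aged replicate 2 it was -0.06. The young animals were close to each other, with an SD of 0.04, and 4.83% of the 14917 probe sets above the background guide had a smaller young range. The aged range of 0.27 was ordinary, above that of 45.2% of these probe sets. Among named probe sets above the median, the genes whose values over the 6 arrays lay closest to those of Nr3c1, each centred on its own mean, were the casein kinase Csnk1a1, the ubiquitin ligase scaffold Cul3 and the F-box protein Fbxo11. Their root mean square differences from Nr3c1 were 0.011, 0.016 and 0.019 on the log2 scale, among 12596 probe sets.

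Nr3c2 (110784_at) encodes the mineralocorticoid receptor, which binds aldosterone and also, with high affinity, glucocorticoids. It read 5.72, 5.61 and 5.62 in the young animals and 5.72, 5.76 and 5.64 in the aged ones. The groups overlapped, and this was the gene with the narrowest range over the 6 arrays, 0.15. The difference was 0.06 (SE 0.10, interval -0.18 to 0.29, limma adjusted p = 0.928). It was also the single member with a higher mean in the aged tissue.

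Hsd11b1 (15483_at) encodes the reductase that turns an inactive keto steroid back into active hormone. It read 2.53, 2.61 and 3.21 in the young and 2.90, 2.29 and 2.44 in the aged animals. All 6 values lay under the background guide, so neither the presence of the transcript nor an age difference can be read from this probe set (difference -0.24, SE 0.22, limma adjusted p = 0.832). Hsd11b2, which inactivates glucocorticoid, read 3.85 and 3.85 on average in the young and aged animals (difference -0.0010, SE 0.15). Its values, 3.65 to 4.15, lay near the background guide, where differences are compressed. H6pd, which supplies the reductase with its cofactor, read 6.00 and 6.08 (difference 0.08, SE 0.17). Both genes were chosen for their role after their values were seen.

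Fkbp5 (14229_at) encodes a co-chaperone that lowers the receptor's hormone affinity and is itself induced by the receptor, a short feedback loop. It read 4.26, 5.07 and 6.01 on the young arrays 1 to 3 and 4.56, 4.78 and 5.04 on the aged arrays 1 to 3. The young animals spanned the aged ones on both sides, from the lowest of the 6 values on young replicate 1 to the highest on young replicate 3. The young range of 1.76 exceeded that of 99.6% of the probe sets above the background guide, whereas the aged range of 0.48 exceeded that of 76.2%. The difference of the means was -0.32 (SE 0.39, limma adjusted p = 0.883), and its interval of 0.431 to 1.49 in fold was the widest of the 9. Its sign turned when young replicate 3 was left out, and with no other single array left out. It was -0.75 without young replicate 1 (unadjusted p = 0.0377, adjusted p = 0.766) and 0.13 without young replicate 3.

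**Figure D2:**
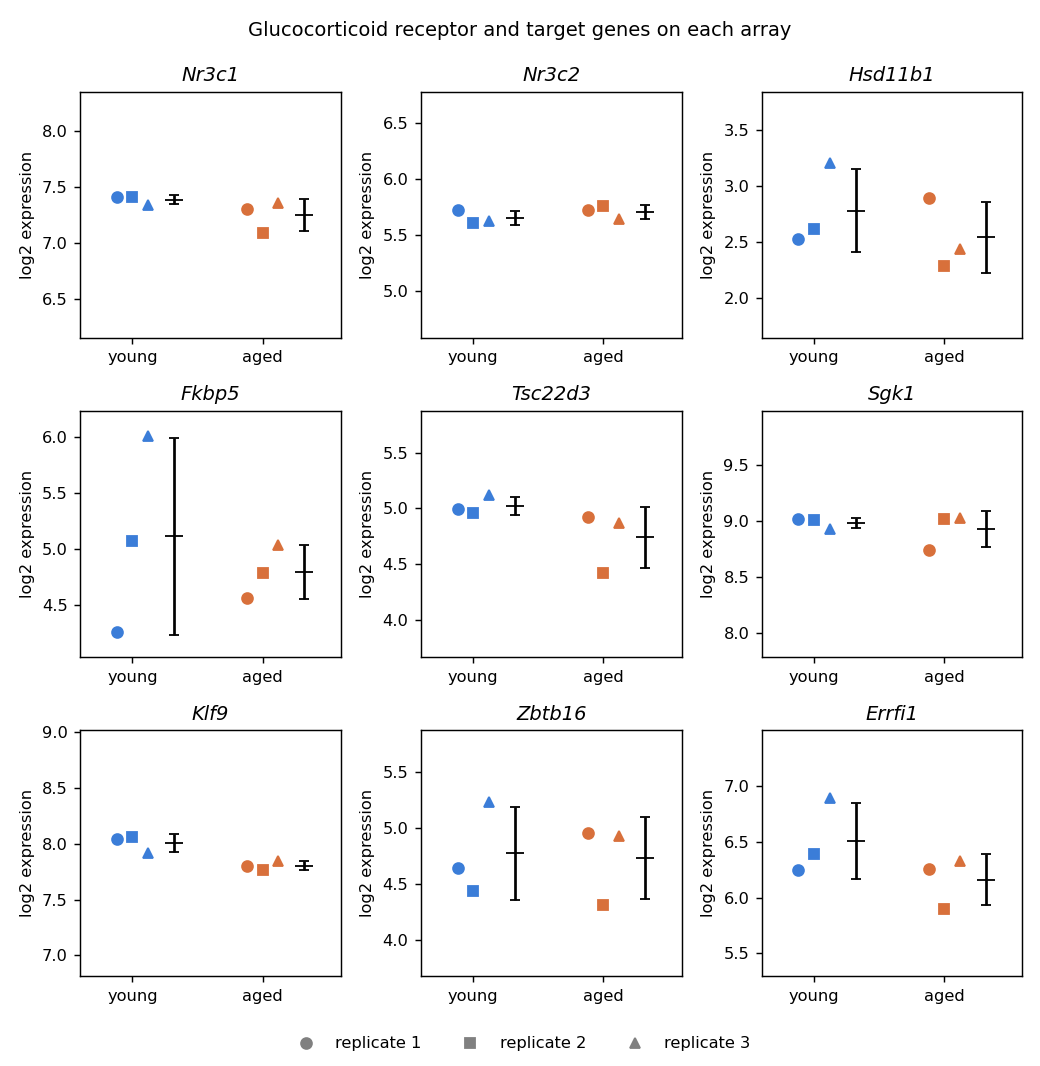
Log2 expression of the 9 genes on each array, young in blue and aged in orange, with the marker shape giving the replicate number and the black bar the mean ± SD (n = 3). All panels span the same width on the log2 scale. The young values of Fkbp5 run from 4.26 to 6.01, while Nr3c1, Nr3c2, Sgk1 and Klf9 have ranges of 0.151 to 0.321 over all 6 arrays.

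The hormone-induced genes include the pair whose groups did not overlap, Tsc22d3 and Klf9. Tsc22d3 (14605_at) encodes GILZ, a leucine zipper protein that carries part of the anti-inflammatory action of glucocorticoids. It read 4.999, 4.960 and 5.116 in the young and 4.926, 4.426 and 4.872 in the aged animals. Every aged value lay below every young one, by 0.03 and 0.09 for aged replicates 1 and 3 and by 0.53 for aged replicate 2. The difference was -0.28 (SE 0.15, 95% interval -0.64 to 0.07, limma adjusted p = 0.719), and -0.13 without aged replicate 2.

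Klf9 (16601_at) encodes a Kruppel-like transcription factor that is induced by glucocorticoid and by thyroid hormone. It read 8.05, 8.06 and 7.91 in the young and 7.80, 7.76 and 7.84 in the aged animals. The groups did not overlap, and the gap between the lowest young and the highest aged value was 0.07. The difference was -0.20 (SE 0.10), a 0.868-fold level with an interval of 0.736 to 1.02, and it had the smallest p of the 9 (limma unadjusted p = 0.0834, adjusted p = 0.696). Over the fits without 1 array it stayed between -0.25 and -0.18. Of 16 other Kruppel-like factors 8 had a lower and 8 a higher aged mean (median -0.0028), and none had an unadjusted p under 0.05.

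Sgk1 (20393_at) encodes a kinase that keeps epithelial sodium channels at the membrane and is induced by both receptors. It read 9.02, 9.01 and 8.93 in the young and 8.75, 9.02 and 9.02 in the aged animals. Aged replicate 1 was the lowest, and the others spanned 0.09. The difference was -0.06 (SE 0.12, interval 0.796 to 1.16 in fold, limma adjusted p = 0.936), and 0.03 without aged replicate 1. This is the gene with the full response element in 1 of its 6 promoter windows, the one printed above.

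Zbtb16 (235320_at) encodes PLZF, a zinc finger repressor. It read 4.64, 4.44 and 5.23 in the young and 4.96, 4.31 and 4.93 in the aged animals, and the groups overlapped over most of their range. The difference was -0.04 (SE 0.25, interval -0.61 to 0.53, limma adjusted p = 0.987), and it was 0.19 without young replicate 3 and 0.17 without aged replicate 2. Errfi1 (74155_at) encodes MIG6, an inhibitor of the epidermal growth factor receptor. It read 6.25, 6.39 and 6.89 in the young and 6.26, 5.90 and 6.33 in the aged animals. Young replicate 3 and aged replicate 2 were the outermost values, and the rest spanned 0.14. Its difference of -0.35 (SE 0.19, interval -0.80 to 0.10, limma adjusted p = 0.731) was the lowest of the 9, and it was -0.16 without young replicate 3.

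The same arrays recurred at the ends of the range. Of the 8 members above the background guide, young replicate 3 was the highest of the 6 arrays for 4, Fkbp5, Tsc22d3, Zbtb16 and Errfi1, while it was the highest for 13.0% of probe sets above the background guide. Aged replicate 2 was the lowest for 5 of the 8, Nr3c1, Tsc22d3, Klf9, Zbtb16 and Errfi1, against 26.1% of those probe sets. These are the arrays on which the means of the oligodendrocyte, fibroblast and endothelial markers were highest and lowest. For endothelium they read 5.78 and 5.01, with 7 of 12 markers highest on young replicate 3 and 8 lowest on aged replicate 2. Mural markers were also highest on young replicate 3, in 5 of 9 genes, and the part of those cells in the members' values was not tested. Without young replicate 3 the median difference of the 9 genes was -0.08, and without aged replicate 2 it was -0.11.

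Clock genes were uneven between the same young animals. Of 16 clock genes, 8 were lowest on young replicate 1, where 20.1% of probe sets above the background guide were lowest, and 7 were highest on young replicate 3. The examples that follow were chosen after their values were seen. Ciart, a repressor of the clock, read 4.13, 4.93 and 5.61 on the young arrays 1 to 3 and 4.93 to 5.05 on the aged ones. Bhlhe41, a repressor of the same loop, read 4.52, 5.04 and 5.96 in the young and 4.93 to 5.49 in the aged animals. The output factor Dbp read 6.81, 7.39 and 7.98 in the young and 7.32 to 7.54 in the aged animals. In each of these, as in Fkbp5, the young values were spread to either side of all aged values. Arntl, which in the clock peaks opposite to Dbp, was highest on young replicate 1 at 6.66, and read 6.27 and 5.72 on young replicates 2 and 3. Nr1d1, a repressor of Arntl, read 7.66, 8.41 and 8.85 in the young and 7.99 to 8.42 in the aged animals. Per1, a clock gene that glucocorticoid also induces, did not share this order, at 7.04, 6.65 and 6.63 in the young and 6.40, 6.93 and 6.92 in the aged animals. Time of collection was not tested, since no label gives it.

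**Figure D3:**
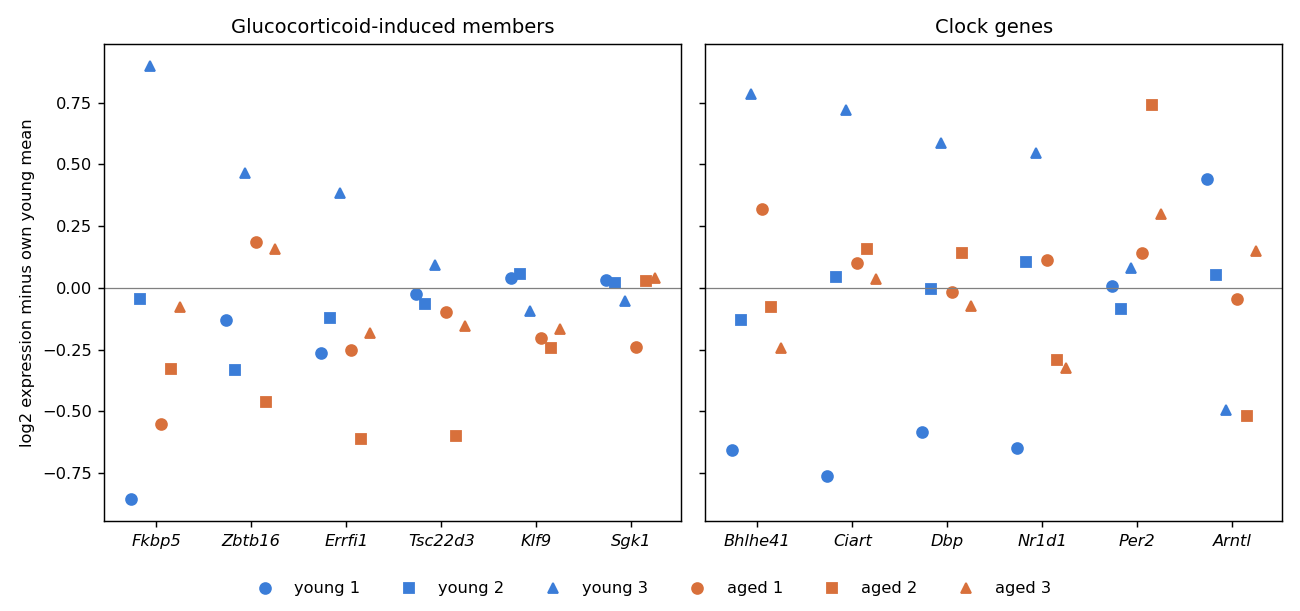
Log2 expression on each array minus the gene's own young mean, for the 6 glucocorticoid-induced members (left) and 6 clock genes chosen after their values were seen (right), young in blue and aged in orange, with marker shape giving the replicate. Young replicates 1 and 3 lie at opposite ends for Fkbp5, Bhlhe41, Ciart, Dbp and Nr1d1, while for Arntl young replicate 1 is the highest and young replicate 3 lies just above the lowest value, of aged replicate 2.

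By the likeness measure used for Nr3c1, the genes closest to Fkbp5 over the 6 arrays were the predicted gene Gm11821, the transcription cofactor Eya2 and the matrix protein Smoc1. Their root mean square differences from Fkbp5 were 0.224, 0.256 and 0.261. These are far wider than the distances around Nr3c1, as the range of Fkbp5 is wider too.

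Other genes of the pathway were grouped by role. Of 26 further glucocorticoid-induced genes 0 were called by limma, while 2 higher and 4 lower had an unadjusted p under 0.05, where 3.82% and 3.96% of all probe sets did. The aged mean was lower for 17 of the 26, against 50.5% of all probe sets, with a median of -0.10. The cell cycle inhibitor Cdkn1a, also a target of p53, had the smallest p, at 7.10, 7.08 and 6.87 in the young and 6.38, 6.50 and 6.05 in the aged animals (difference -0.71, SE 0.15, limma adjusted p = 0.271). The lipid droplet protein Plin4 was next, at 5.057, 4.995 and 5.203 in the young and 5.329, 5.886 and 5.609 in the aged animals (difference 0.52, SE 0.16, adjusted p = 0.469). Groups did not overlap in either gene, and they lay in opposite directions. The other genes with an unadjusted p under 0.05, chosen after their values were seen, were the lipase inhibitor Angptl4 (-0.54), the mTOR inhibitor Ddit4 (-0.41), the phagocytic receptor Mertk (0.40) and the anti-inflammatory annexin Anxa1. Angptl4 ran from 4.56 on young replicate 3 to 3.51 on aged replicate 2, the latter near the background guide. Anxa1 read 3.33, 3.63 and 4.86 in the young and 2.87, 2.55 and 3.23 in the aged animals, and just 2 of these values, on young replicates 2 and 3, lay above the background guide, so that the size of its difference cannot be read. Mertk is also a macrophage gene, and 8 of 11 macrophage markers had higher values in the aged tissue at an unadjusted p under 0.05 and 1, Pf4, lower values (-0.44), with list means of 4.40 to 4.89 in young and 4.97 to 5.73 in aged animals. The part of macrophages in the Mertk value was not tested.

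Inflammatory genes that glucocorticoid is known to repress were mostly dim. Of 14, 11 had means under the background guide, 0 were called, and 2 had an unadjusted p under 0.05, both with a higher aged mean. These were the adhesion receptor Icam1, from 4.47 ± 0.15 to 5.05 ± 0.28 (SD, n = 3 each, limma adjusted p = 0.437), and Il1b, from 2.15 to 2.45, under the guide in both groups. The list median was 0.11, and it moved to 0.28 over the 3 genes above the guide and to 0.05 without aged replicate 3.

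Chaperones of steroid receptors had a lower aged mean for 12 of 15 genes, against 50.5% of all probe sets, with a median of -0.14 and 0 called. Over the fits without 1 array the median ran from -0.17 to -0.07. Young replicate 2 was the highest array for 7 of the 15 and aged replicate 2 the lowest for 6, against 19.4% and 26.1% of probe sets above the background guide. The inducible heat shock protein Hspa1a read 6.82, 6.91 and 6.91 in the young and 6.58, 5.68 and 5.65 in the aged animals (difference -0.91, SE 0.24, limma adjusted p = 0.399). Its groups did not overlap, and aged replicate 1 lay closer to the young values than to the other aged ones. It was the 1 chaperone with an unadjusted p under 0.05, and St13 followed at -0.24. Receptor coregulators had a median of 0.03 over 15 genes, within -0.12 to 0.14, with 0 called and 0 at an unadjusted p under 0.05. Hdac3, a corepressor deacetylase, differed by 0.14 and Nrip1, a corepressor, by -0.12.

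Among 15 genes of corticosteroid synthesis, conversion and transport none passed the adjusted threshold or had an unadjusted p under 0.05 (0 by limma in each case). The means of 10 lay below the background guide. The steroidogenic enzymes Cyp11a1, Cyp11b1, Cyp11b2, Cyp17a1 and Cyp21a1, named after their values were seen, did not exceed 2.79 on any array. Abcb1a, an efflux pump of blood-brain vessels, read 4.782, 4.389 and 6.077 in the young and 4.542, 4.001 and 4.244 in the aged animals (difference -0.82, SE 0.39, limma adjusted p = 0.678), again with its highest value on young replicate 3. Star, the mitochondrial cholesterol carrier, differed by -0.25 (adjusted p = 0.690), with an aged mean of 3.36, under the guide. Endothelial markers, which share vessels with Abcb1a, had lower aged values at an unadjusted p under 0.05 in 9 of 12 genes, with list means of 5.34 to 5.78 in young and 5.01 to 5.08 in aged animals, and their part in the Abcb1a value was not tested.

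The sodium transport genes downstream of the mineralocorticoid receptor and Sgk1 held 2 genes with an unadjusted p under 0.05 among 12, both subunits of the epithelial sodium channel. Scnn1b read 3.23, 3.12 and 3.86 in the young and 4.12, 4.27 and 3.89 in the aged animals (difference 0.69, SE 0.21, limma adjusted p = 0.472). Scnn1a read 5.04, 4.80 and 5.11 in the young and 5.39, 5.35 and 5.28 in the aged animals (difference 0.36, SE 0.12, adjusted p = 0.526). The groups did not overlap in either subunit, but neither was called, and 2 of the young Scnn1b values lay under the background guide. Scnn1g, the remaining subunit, stayed under the guide, at 3.16 to 3.35 over all arrays.

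Of 7 other steroid hormone and estrogen-related receptors 0 were called. The estrogen receptor Esr1 had the 1 unadjusted p under 0.05, at 3.52, 3.89 and 3.95 in the young and 3.88, 4.57 and 4.68 in the aged animals (difference 0.59, SE 0.23, limma adjusted p = 0.577), and aged replicate 1 overlapped the young values. Of 16 relatives of Fkbp5, Tsc22d3 and Sgk1, 1 higher and 4 lower had an unadjusted p under 0.05, and 0 were called. Over all probe sets the shares were 3.82% higher and 3.96% lower. Aged replicate 2 was the lowest array for 9 of the 16, against 26.1% of probe sets above the background guide. Fkbp7, a prolyl isomerase of the endoplasmic reticulum, differed by -0.80 (SE 0.17, adjusted p = 0.287), and Fkbp11, of the same compartment, by 0.61 (SE 0.17, adjusted p = 0.449). Fkbp7 was highest on young replicate 3 and lowest on aged replicate 2, and the part of tissue make-up in its values was not tested. Immediate early genes, which respond to handling and tissue stress, had a median of 0.0053 over 17 genes with 0 called, and Btg2 had the smallest p (difference -0.39, adjusted p = 0.478). The means of 6 of these 17 lay under the background guide, where a difference could not be read. In the 16 clock genes 0 were called, and 2, Bhlhe40 and Per2, had an unadjusted p under 0.05, with differences of 0.61 and 0.39 (adjusted p = 0.435 and 0.619).

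**Figure D4:**
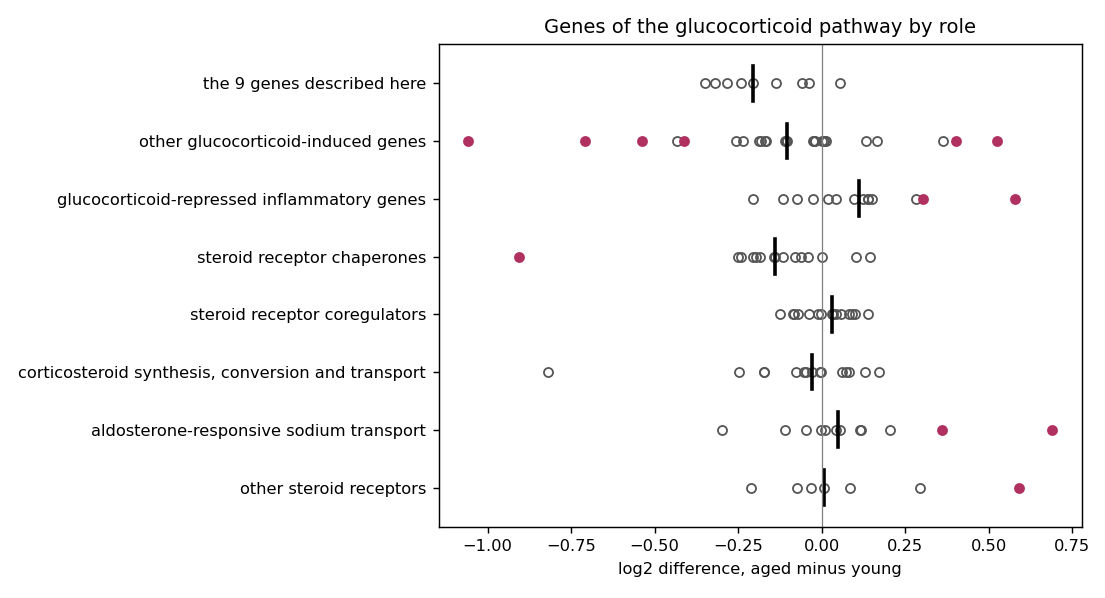
Log2 difference, aged minus young, of each gene in 8 groups by role. Open points had an unadjusted p of 0.05 or more and filled points a smaller one, and black bars are medians, from -0.20 for the 9 genes described here to 0.11 for the glucocorticoid-repressed inflammatory genes. No gene shown passed the adjusted threshold.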

How the data were processed

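The authors deposited log2 expression values per Brainarray probe set (1 per Entrez gene), per the file headers. Processing with RMA and limma 3.14.4 is stated per the submitters' processing notes. The array model and genome build: not given in the sources used here. The authors' deposited table also holds a signed fold, a t score, p-values and q-values. Its p-values differed from those computed here by at most 4.5e-13, so it gives no separate support. A rounded value table differs by at most 0.005. Of the columns with values per sample, 0 were left out.

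One model with age as its term was fitted to all 25206 probe sets (limma 3.58.1 under R 4.3.3, lmFit and eBayes, two-sided), with Benjamini-Hochberg adjustment over all probe sets and a threshold of 0.05. Errors are SD or moderated standard errors (SE), with 95% intervals. No detection calls or filters were used, and RMA compresses differences near background and saturation. The number of arrays limits the precision. On simulated arrays (25206 probe sets, 10 runs, aged against young) the fit recovered 5.4% of log2 differences of 0.5 and 60.8% of those of 1. The separate mice are the replicates.

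The members and gene lists were chosen with earlier results of these data known. Not every listed gene is reported here. All 9 members are named. From each list called genes, or the 2 with the smallest p, may be named, and for Nr3c1 and the member with the widest range the 3 nearest profiles. Of 274 list entries 273 matched a probe set, 2 of them through RefSeq symbols. Each result was recomputed with the rounded table, with quantile or median rescaling, without dim probe sets (by either of 2 filters), with a robust variance trend, with weighted arrays, with replicate number as a block, and without each array in turn.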

Additional observations from a re-analysis of the deposited data

How the results depend on the processing

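None of the 9 genes passed the adjusted threshold in any of 124 refits over 14 alternatives, and 119 of the 124 differences kept their direction. Under the 2 filters on dim probe sets, the variance trend and the replicate block the difference itself cannot change. The directions under those settings were therefore fixed in advance and are no test. Zbtb16 (-0.04) turned to 0.053 with array weights, to 0.19 when young replicate 3 was left out and to 0.17 when aged replicate 2 was, and over the fits without 1 array Zbtb16 ran from -0.21 to 0.19, Fkbp5 from -0.75 to 0.13 and Sgk1 from -0.11 to 0.034. The count of members with an unadjusted p under 0.05 and a lower aged mean ranged from 0 to 1 over the fits without 1 array, with Fkbp5 that gene, without young replicate 1. Their median difference stayed between -0.21 and -0.08. Over all probe sets, 5 were called lower, and this became 8 with quantile normalization once more and with median centring, 12 among probe sets above the array median on at least 3 arrays, 9 above the background guide and 11 with a variance trend. Leaving out 1 array gave 0 to 27 called higher (main 15) and 0 to 25 lower. Both counts were 0 without young replicate 2 or aged replicate 2, with 739 or more probe sets per direction at an unadjusted p under 0.05 by limma. With the replicate number as a block 1 probe set was called lower and no member. Deviations from the group mean correlated at -0.023, 0.154 and -0.050 between same-numbered animals, and at -0.142 to 0.154 between the others. Deviations within a group cancel and so constrain these correlations, which cannot decide whether the numbers pair animals. Hsd11b1 was not tested under the filters on dim probe sets.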
